A study of Homo sapiens with 9 samples.

Results

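The genes of 9 proteins that form or join the transcription factor AP-1, FOS, FOSB, FOSL1, FOSL2, JUN, JUNB, JUND, MAFF and BATF3, were followed through a table of chromatin accessibility in a neuroblastoma cell line. A region of the table was taken when its centre lay within the GRCh38 span of one of these genes or within 50 kb of either end, which gave 99 of the 148797 regions. Of the 99 regions, 11 overlapped the 1 kb on either side of an end of the gene itself, 2 lay further inside a gene and 86 lay in the flanks. Those 11 are called gene-end regions here, and the other 88 are called flank regions; 26 of the 88 touched an end of another protein-coding gene. The regions per gene numbered 19 for JUNB (3 at its gene ends), 14 for FOSB, 13 for FOSL1, 11 each for FOS and BATF3, 9 each for FOSL2 and JUND, 8 for MAFF and 5 for JUN. Every gene had at least 1 gene-end region.

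The assay was ATAC-seq: the transposase Tn5 cuts DNA where chromatin is open and leaves sequencing adapters at the cuts. The cells were SK-N-BE(2)c, an established human neuroblastoma line, and all of them, the controls included, had been transfected with an antisense oligonucleotide (ASO) at 100 nM by means of lipofectamine and collected 48 h later. The lncRNA NESPR is the target of both ASO2 and ASO10, NCA is the negative control oligonucleotide, and each of the 3 groups had 3 libraries. Cells without oligonucleotide, a second cell line and the RNA level of NESPR were not analysed here. Both ASOs were compared with the same NCA libraries, so the 2 comparisons share their controls and their values are given side by side.

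AP-1 is a dimer of basic leucine zipper proteins. JUN, JUNB and JUND pair with one another or with a FOS protein, while FOS, FOSB, FOSL1 and FOSL2 need a JUN partner to bind DNA. The dimers bind the motif TGANTCA, and dimers that include relatives such as the ATF proteins also bind TGACNTCA. FOS, FOSB, JUN and JUNB are immediate early genes, which are transcribed within minutes of a stimulus without new protein synthesis. MAFF is a small MAF protein without a transactivation domain of its own, and BATF3 is a JUN partner best known from dendritic cells.

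The promoters of JUN, JUNB, JUND and FOSL2 are shown because the gene ends of these genes were more open with ASO10 in the results below. For JUNB, the region over the start did not pass the test alone, and the region that did lies past the stop. Each line gives the 250 bases before the annotated start, 5′ to 3′ on the strand of the gene, from RefSeq on GRCh38.p14, and capitals mark a match to TGANTCA or TGACNTCA. The coordinates are chr1:58784048-58784297 (minus strand) for JUN, chr19:12791236-12791485 (plus strand) for JUNB, chr19:18281623-18281872 (minus strand) for JUND and chr2:28392608-28392857 (plus strand) for FOSL2.
JUN: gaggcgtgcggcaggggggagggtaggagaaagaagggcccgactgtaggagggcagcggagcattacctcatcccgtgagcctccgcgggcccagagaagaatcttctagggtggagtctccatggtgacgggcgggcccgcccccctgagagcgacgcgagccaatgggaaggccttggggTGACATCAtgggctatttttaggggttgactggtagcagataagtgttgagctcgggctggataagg
JUNB: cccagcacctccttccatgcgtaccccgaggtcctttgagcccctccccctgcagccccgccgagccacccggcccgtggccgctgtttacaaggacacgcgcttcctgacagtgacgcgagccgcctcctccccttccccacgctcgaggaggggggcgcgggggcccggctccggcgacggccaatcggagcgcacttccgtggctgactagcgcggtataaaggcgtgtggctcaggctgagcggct
JUND: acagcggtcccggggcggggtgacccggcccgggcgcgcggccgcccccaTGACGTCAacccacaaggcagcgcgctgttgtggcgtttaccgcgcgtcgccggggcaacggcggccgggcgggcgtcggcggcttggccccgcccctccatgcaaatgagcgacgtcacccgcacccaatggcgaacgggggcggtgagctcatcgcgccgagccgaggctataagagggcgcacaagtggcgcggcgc
FOSL2: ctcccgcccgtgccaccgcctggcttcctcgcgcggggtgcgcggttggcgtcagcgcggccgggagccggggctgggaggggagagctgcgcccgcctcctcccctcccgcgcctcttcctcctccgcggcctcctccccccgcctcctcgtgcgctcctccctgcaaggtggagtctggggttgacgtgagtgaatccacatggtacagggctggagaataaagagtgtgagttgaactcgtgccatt

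All 250 bases lay inside an ATAC-seq region for JUN, JUND and FOSL2, and 188 of the 250 for JUNB. The promoter table held 7 of the 9 genes, all but FOSL1 and BATF3. Both motifs and the CArG box, the binding sequence of the serum response factor, were searched on both strands from 250 bases before to 50 bases after the start and no match overlapped another. JUN held TGACATCA from base -67 to -60, counted from the start, JUND held TGACGTCA from -200 to -193, and MAFF held TGACGTCA from -54 to -47. FOSL2 held TGACTCA from base 5 to 11 after the start, outside the stretch printed above. FOS, FOSB and JUNB held none of the 3 in this window. Among 35114 promoters of this length, 7.71% held TGANTCA, 7.72% held TGACNTCA and 1.29% held a CArG box. A match is a sequence of letters and not a measured binding site.

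Total counts per library ran from 7293565 to 10948569. Gene ends took a larger share of the counts with ASO10 (25.6% to 27.0%) than with NCA (23.6% to 25.2%) or ASO2 (22.5% to 25.0%), and the part of this shift in the results below was not tested beyond a fit with loess offsets, which removes trends with signal strength. Of 6 marker genes of adrenergic neuroblastoma, 5 had a gene-end region, and TH had none. By the mean of the NCA libraries, 4 of the 5 (PHOX2A, ISL1, HAND2 and DBH) exceeded the median gene-end level of 56.6 CPM, and GATA3 lay under it. This level is the counts summed over the gene-end regions of a gene and scaled to those of all genes. DBH was close to the median, with an NCA mean of 59.6 CPM and 49.7 CPM in the lowest of the 9 libraries. The summed level of the 5 was 428 to 443 CPM with NCA, 418 to 454 with ASO2 and 399 to 426 with ASO10. The ASO10 libraries thus lay below the controls, and the part of this in the results was not tested. Of 7 markers of other cell types, 3 had a region (PTPRC, PECAM1 and COL1A1), none above the median, and their sum was 41.0 to 53.5, 50.9 to 60.9 and 40.2 to 59.3 CPM. These are bulk libraries, in which fewer cells with an open site and less opening per cell cannot be told apart. The labels do not say that the libraries of a group came from separate cultures, so p-values measure the spread between these libraries.

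In control cells the gene ends of JUND and JUNB held the most counts per base of the 9. The level here is that same gene-end sum, as CPM with TMM scaling over the gene-end sums of all genes (gene-end CPM), divided by the length of those regions in kb. These lengths ran from 445 bases (FOSL1) to 3158 bases (FOSL2), and no correction for DNA copy number was made. JUND stood at 77.4 ± 4.62 and JUNB at 76.6 ± 0.861 gene-end CPM per kb (SD, n = 3), and their libraries overlapped. FOSL2 followed with 61.3 ± 3.62, JUN with 59.4 ± 1.86, FOSB with 54.7 ± 3.94 and FOS with 53.6 ± 1.30, where each overlapped the next in this order. MAFF (38.2 ± 2.06), BATF3 (33.8 ± 0.572) and FOSL1 (26.2 ± 2.12) were lower, and none of these overlapped its neighbour. The single gene-end region of FOSL1 gave 10.6 to 12.4 gene-end CPM in the NCA libraries.

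**Figure D1:**
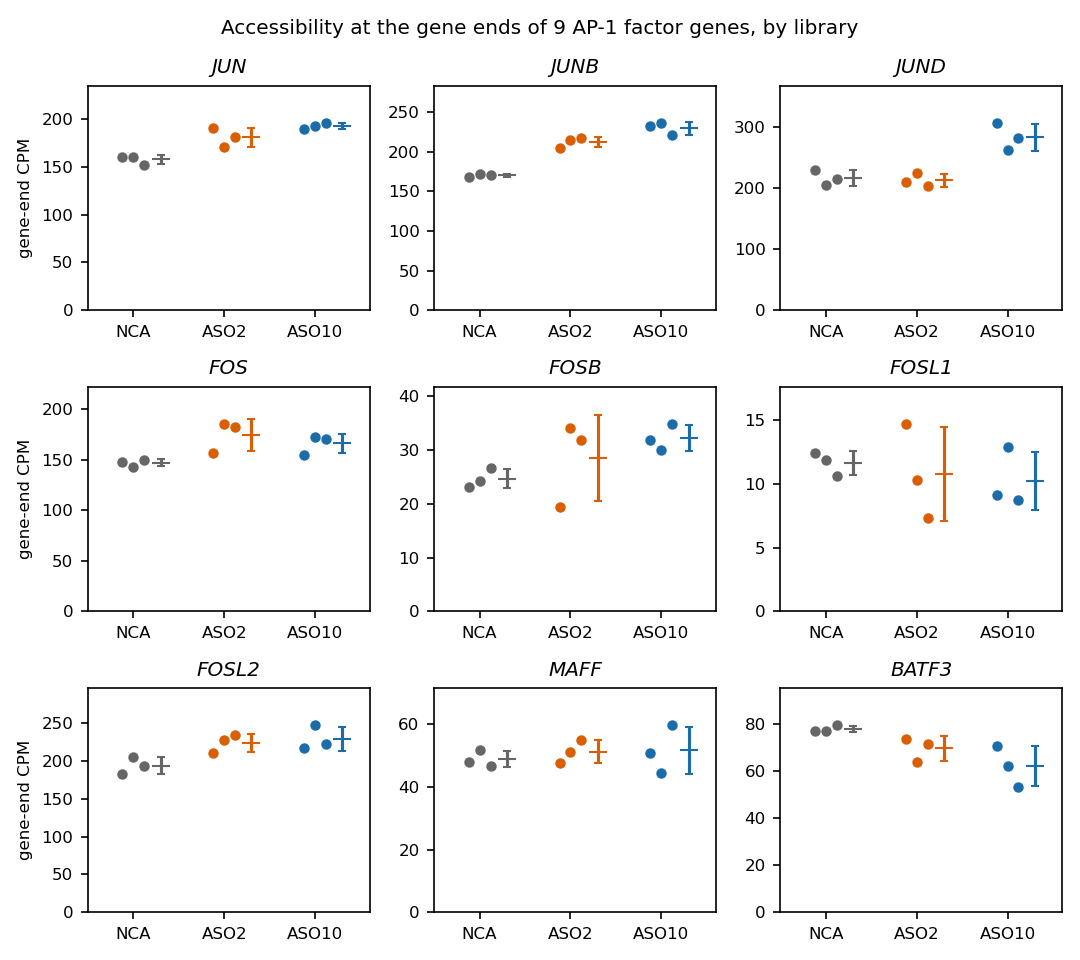
Gene-end CPM (vertical axes, each from 0) of the 9 AP-1 factor genes in each of the 9 libraries, as points, with the mean and SD of each group beside them. JUNB lies higher in all 6 ASO libraries than in the NCA libraries, JUND lies higher in the 3 ASO10 libraries, and FOSL1 is the weakest gene.

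With ASO10, the gene ends of all 3 JUN genes and of FOSL2 were more open than with NCA, by 1.18 to 1.35 times. Of the 9 genes, 4 passed the test (adjusted p under 0.05, edgeR's quasi-likelihood test on the gene-end sums), all higher, where 2.83% of 14463 genes were called higher and 1.66% lower. With ASO2, JUNB alone passed, where 0.92% of genes were called higher. The median log2 fold change of the 9 genes was 0.24 with ASO10 and 0.19 with ASO2, against -0.0038 and 0.0028 over all genes tested. All 3 ASO10 libraries lay above all 3 NCA libraries for 6 of the 9 genes (11.2% of all genes) and below them for BATF3 (10.3%). For ASO2 those counts were 4 genes (9.18%) and BATF3 (8.03%). Strong gene ends had a higher background of calls with ASO10. Among the 3101 genes with at least 100 gene-end CPM, which include FOS, FOSL2, JUN, JUNB and JUND, 8.67% were called higher with ASO10 and 2.13% with ASO2. The median of those strong genes was 0.07 with ASO10, and its 5th to 95th percentiles ran from -0.23 to 0.32. With loess offsets, 1.15% of all genes were called higher with ASO10, among them JUNB (log2 0.34, adjusted p = 0.00372) and JUND (log2 0.28, adjusted p = 0.0111). JUN (adjusted p = 0.161) and FOSL2 (0.354) were not called with those offsets. In the main fit their log2 fold changes, 0.29 and 0.24, lay inside the percentiles given for the strong genes.

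JUNB, a JUN protein often described as a brake on JUN activity, lies on chromosome 19 at 12791486 to 12793315. Its gene-end level was 168, 172 and 170 gene-end CPM in the NCA libraries, 205, 215 and 217 with ASO2, and 232, 235 and 220 with ASO10. All 6 ASO libraries lay above all 3 controls. The rise was 1.35-fold with ASO10 (log2 0.43, SE 0.079, adjusted p = 0.000141) and 1.25-fold with ASO2 (log2 0.32, SE 0.080, adjusted p = 0.0144). The ASO10 call held under all 20 alternatives run, with adjusted p up to 0.00372. The ASO2 call was lost with loess offsets (adjusted p = 0.0614), with gene ends taken within 250 bases (0.142), and without NCA 1 (0.0621), NCA 2 (0.0528), NCA 3 (0.0596), ASO2 2 (0.0596) or ASO2 3 (0.0697). ASO2 and ASO10 did not differ by the test (log2 -0.11, 95% interval -0.26 to 0.041, adjusted p = 0.549).

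The JUNB signal came from 3 separate regions, and each was more open in every ASO10 library than in any NCA library. Region levels are scaled to the counts in all regions (region CPM), a different scale from gene-end CPM. The region just past the stop end, chr19:12793463-12794127, gave 17.0, 14.1 and 14.6 region CPM with NCA, 18.7, 18.5 and 18.3 with ASO2, and 22.6, 28.1 and 21.6 with ASO10. It rose with ASO10 (log2 0.66, SE 0.15, adjusted p = 0.00433), a call that was lost without NCA 2 (0.0561) or ASO10 2 (0.135). The region about 1.0 kb before the start, chr19:12789573-12790499, gave 22.7, 27.8 and 31.1 region CPM as means for NCA, ASO2 and ASO10 (ASO10 log2 0.45, adjusted p = 0.0648). Its centre lies inside the gene HOOK2. The region over the start itself, chr19:12791298-12791925, gave 14.1, 16.4 and 19.9 (log2 0.50, adjusted p = 0.102); it also touches an end of HOOK2, so its counts belong to both genes. Neither of those passed edgeR's test alone. DESeq2 called the first of them (0.0363), and so did edgeR with at least 10 counts in every library (0.0311), with only the groups compared (0.0367), and without ASO2 2 (0.0457) or ASO2 3 (0.047).

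JUND, the JUN protein that most cell types make without a stimulus, was more open with ASO10 than with either NCA or ASO2. It lies on chromosome 19 at 18279694 to 18281622. Its gene-end level was 231, 205 and 215 gene-end CPM with NCA, 210, 225 and 203 with ASO2, and 306, 262 and 282 with ASO10. The ASO10 libraries lay above all others, and the NCA and ASO2 libraries overlapped. The rise with ASO10 was 1.31-fold (log2 0.39, SE 0.074, adjusted p = 0.000268), and ASO2 against NCA gave log2 -0.03 (95% interval -0.18 to 0.12, adjusted p = 0.923). The 2 ASOs differed directly (log2 -0.41 for ASO2 against ASO10, SE 0.074, adjusted p = 3.7e-05), where 0.774% of genes were called lower in that comparison. Both calls held under all 20 alternatives, with adjusted p up to 0.0111 and 0.00444.

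A single region, chr19:18279624-18282424, covers the whole of JUND, its promoter included, and holds the same counts as its gene-end sum. It gave 71.8, 60.9 and 66.7 region CPM with NCA, 62.3, 70.8 and 56.1 with ASO2, and 103, 83.6 and 93.1 with ASO10. In the fit over regions it was higher with ASO10 than with NCA (log2 0.49, SE 0.11, adjusted p = 0.00205) and lower with ASO2 than with ASO10 (log2 -0.56, SE 0.11, adjusted p = 3.7e-05), where 2.87% of gene-end regions were called lower between the ASOs. The first of those calls was lost with loess offsets (0.0524), without NCA 2 (0.0591) and without ASO10 1 (0.121), and the second held under all 18 alternatives. On this scale the median gene-end region of the whole table stood at log2 0.08 for ASO10 against NCA and -0.15 for ASO2 against ASO10. Start and stop of JUND cannot be told apart in this region.

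JUN, the founding member of the family, lies on chromosome 1 at 58780791 to 58784047. Its gene-end level was 160, 161 and 152 gene-end CPM with NCA, 190, 170 and 181 with ASO2, and 189, 192 and 195 with ASO10. Every ASO library exceeded every control. The fold was 1.22 with ASO10 (log2 0.29, SE 0.084, adjusted p = 0.0273), and ASO2 gave log2 0.19 (SE 0.085, adjusted p = 0.273). The ASO10 call was lost with loess offsets (0.161) and without NCA 1 (0.0528), NCA 3 (0.125), ASO10 1 (0.0581), ASO10 2 (0.0779) or ASO10 3 (0.0922). The region behind it, chr1:58782802-58785456, holds the promoter and the 5′ part of the gene. It is the only gene-end region of JUN, so its counts are those of the gene-end sum on the region scale. With ASO10 it stood at log2 0.38 against NCA (adjusted p = 0.0564 with edgeR), where the median gene-end region stood at log2 0.08. With loess offsets it gave log2 0.22 (adjusted p = 0.362). That region was called by DESeq2 (0.00587) and limma-voom (0.0329), and by edgeR with at least 10 counts in every library (0.0233), with only the groups compared (0.0212), and without ASO2 2 (0.0319) or ASO2 3 (0.0354).

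**Figure D2:**
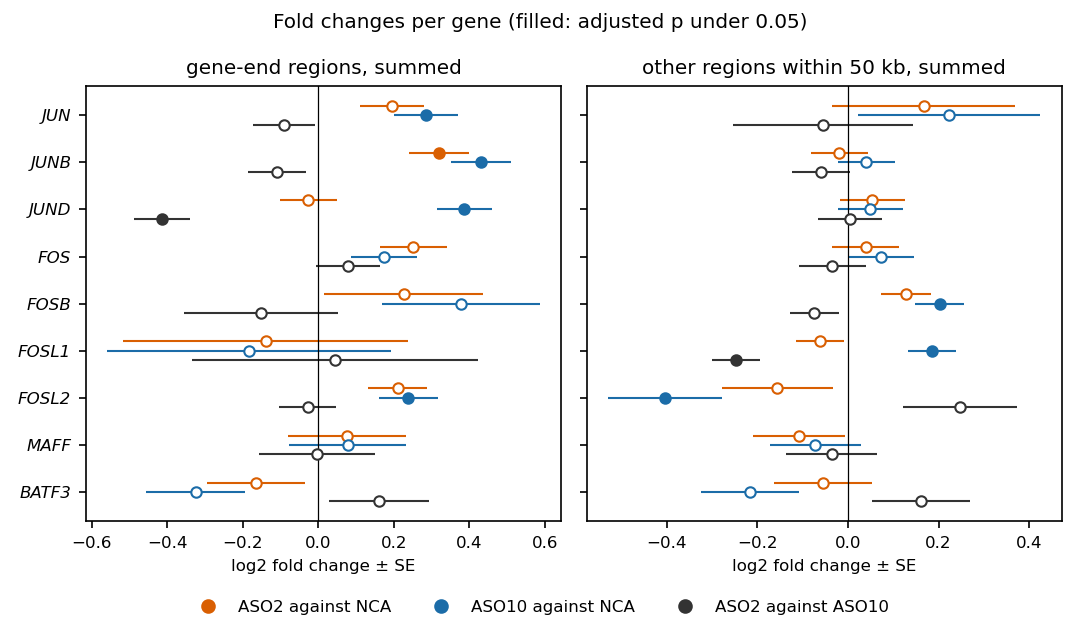
Log2 fold change with its SE (horizontal axes) for each AP-1 factor gene, for the gene-end sum on the left and the flank sum on the right. Filled points have an adjusted p under 0.05: at gene ends JUN, JUNB, JUND and FOSL2 with ASO10, JUNB with ASO2, and JUND between the ASOs.

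Among the FOS genes, FOSL2 was the only one called at its gene ends. FOSL2, also known as FRA-2, lies on chromosome 2 at 28392858 to 28417317. It gave 182, 205 and 193 gene-end CPM with NCA, 210, 227 and 234 with ASO2, and 217, 247 and 222 with ASO10. All ASO libraries lay above the controls. The ASO10 fold was 1.18 (log2 0.24, SE 0.078, adjusted p = 0.0495), just inside the threshold, and 15 of 20 alternatives put it at or above 0.05, up to 0.354 with loess offsets. Among them were 5 of the 9 fits without 1 library, those without NCA 1 (0.204), NCA 3 (0.133), ASO10 1 (0.054), ASO10 2 (0.298) or ASO10 3 (0.076). ASO2 gave log2 0.21 (SE 0.078, adjusted p = 0.172).

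FOS, the prototype immediate early gene, lies on chromosome 14 at 75278828 to 75282230. It gave 148, 143 and 150 gene-end CPM with NCA, 156, 185 and 182 with ASO2, and 155, 172 and 171 with ASO10. The ASO libraries all exceeded the controls, yet neither difference passed the test (ASO2 log2 0.25, SE 0.088, adjusted p = 0.135; ASO10 log2 0.17, SE 0.088, adjusted p = 0.282). Their 95% intervals ran from 0.08 to 0.42 and from 0.0008 to 0.35 on the log2 scale, without adjustment for the number of genes.

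FOSB, at 45467996 to 45475179 on chromosome 19, is a FOS protein with a known role in long-lasting neuronal responses. Its gene-end level was 23.2, 24.2 and 26.7 gene-end CPM with NCA, 19.4, 34.2 and 31.9 with ASO2, and 31.8, 30.0 and 34.8 with ASO10. The ASO10 libraries lay above the controls, and the ASO2 libraries lay on both sides of them. Neither difference passed (ASO2 log2 0.23, SE 0.21, adjusted p = 0.689; ASO10 log2 0.38, SE 0.21, adjusted p = 0.334). FOSL1, also known as FRA-1, lies on chromosome 11 at 65892049 to 65900545. It gave 12.4, 11.9 and 10.6 gene-end CPM with NCA, 14.6, 10.3 and 7.32 with ASO2, and 9.10, 12.8 and 8.69 with ASO10. The 3 groups overlapped, and at this depth the 95% interval for ASO10 against NCA ran from -0.92 to 0.55 on the log2 scale.

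MAFF and BATF3 did not pass the test either. MAFF, on chromosome 22 at 38201994 to 38216511, gave 48.1, 51.8 and 46.7 gene-end CPM with NCA, 47.7, 51.2 and 54.9 with ASO2, and 50.7, 44.6 and 59.6 with ASO10. Its groups overlapped, and both log2 fold changes were 0.08 (SE 0.16, adjusted p = 0.884 for ASO2 and 0.852 for ASO10). BATF3 lies on chromosome 1 at 212686417 to 212699840. It gave 77.1, 76.9 and 79.2 gene-end CPM with NCA, 73.7, 63.5 and 71.5 with ASO2, and 70.3, 62.1 and 53.3 with ASO10. It was the one gene of the 9 with all 6 ASO libraries below the controls, at log2 -0.16 with ASO2 (SE 0.13, adjusted p = 0.617) and -0.33 with ASO10 (SE 0.13, adjusted p = 0.144).

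Single regions were tested next, gene ends apart from flanks. For every gene but JUNB the 1 gene-end region holds the same counts as the gene-end sum. Of the 99 regions, 93 passed the low-count filter, all 11 gene-end regions among them. With ASO10, edgeR called 2 of the 11 gene-end regions, both higher (JUNB past its stop and JUND), where 1.95% of all gene-end regions were called higher. DESeq2 called 5, adding those of JUN and FOSL2 (0.0136) and the JUNB region before the start, limma-voom called 3, adding that of JUN, and loess offsets left 1, that of JUNB past its stop. With ASO2 none was called by edgeR, DESeq2 or limma-voom, 1 had an unadjusted p under 0.05, and 0.646% of gene-end regions were called higher in the whole table. Of the 56 tested flank regions at no gene end, 1 was called lower with ASO10 (background 0.222%) and the same region was called lower with ASO2 (0.776%). Of the 26 at the end of another gene, 1 was called higher with ASO10, against the 1.95% of all gene-end regions, and none with ASO2 by edgeR, DESeq2 or limma-voom, with none at an unadjusted p under 0.05. Away from gene ends ASO2 called 5.37% of all regions higher, and none of the 56 flank regions was among them.

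**Figure D3:**
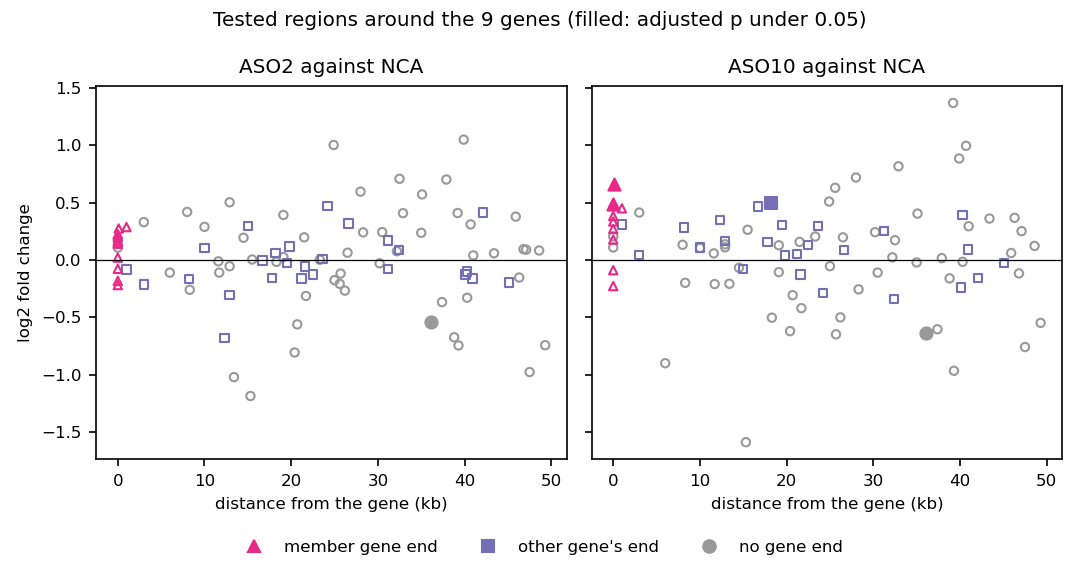
Log2 fold change (vertical axes) of the 93 tested regions against their distance in kb from the AP-1 factor gene (horizontal axes), for ASO2 and ASO10 against NCA. Most gene-end regions lie above 0, the called FOSL2 flank region lies below 0 in both panels at 36.1 kb, and the weak flank regions scatter on both sides.

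The one flank region called with both ASOs lies 36.1 kb before FOSL2, at chr2:28355696-28356765, and was lower with both, while the gene end of FOSL2 was called higher with ASO10. It gave 18.0, 14.8 and 22.4 region CPM with NCA, 13.3, 10.7 and 14.0 with ASO2, and 8.80, 13.9 and 12.9 with ASO10. All 6 ASO libraries lay below the controls. The log2 fold change was -0.54 with ASO2 (SE 0.17, adjusted p = 0.0271) and -0.64 with ASO10 (SE 0.17, adjusted p = 0.0231). DESeq2 (0.125 and 0.0618) and limma-voom (0.0654 and 0.0628) did not call it. The ASO2 call was also lost without NCA 1 (0.0707), NCA 3 (0.36), ASO2 1 (0.0671) or ASO2 2 (0.231). The ASO10 call was lost without NCA 1 (0.0855), NCA 3 (0.361), ASO10 1 (0.407) or ASO10 3 (0.0624). No protein-coding gene end lies in this region.

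Summed over all flank regions of a gene, the ASO10 calls were FOSB and FOSL1 higher and FOSL2 lower, where 6.27% of 19115 genes were called higher and 3.13% lower. Flank CPM is scaled to the flank sums of all genes. FOSB gave 118, 112 and 112 flank CPM with NCA, 128, 130 and 117 with ASO2, and 138, 127 and 129 with ASO10 (ASO10 log2 0.20, SE 0.054, adjusted p = 0.00845). FOSL2 gave 22.5, 25.8 and 27.0, then 22.0, 20.9 and 24.6, then 14.2, 22.1 and 20.7 in the same order (ASO10 log2 -0.40, SE 0.13, adjusted p = 0.0262). The called region 36.1 kb before FOSL2 is 1 of the 8 in this sum, so the 2 FOSL2 results are not separate. It held 140, 117 and 197 of the 241, 279 and 328 counts with NCA. With ASO10 it held 75, 122 and 99 of 173, 271 and 225. With ASO2 no flank sum was called by edgeR, DESeq2 or limma-voom, 1 had an unadjusted p under 0.05, and 9.28% of all genes were called. The FOSB call was lost without ASO10 1 (0.0921), and the FOSL2 call was lost without NCA 2 (0.0733) or NCA 3 (0.134). Without ASO10 1 the FOSL2 flank value shrank to log2 -0.23 (adjusted p = 0.338), and with flanks within 20 kb to -0.17 (0.788). The FOSB call was also lost within 20 kb (0.13), and the FOSL2 call with other genes' ends left out (0.0891). All 3 ASO10 calls were lost with loess offsets (FOSB 0.0998, FOSL1 0.157, FOSL2 0.0551).

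The FOSL1 flank sum is largely a sum over other genes, since 9 of its 12 flank regions touch their ends. It gave 129, 126 and 121 flank CPM with NCA, 124, 125 and 112 with ASO2, and 146, 137 and 144 with ASO10. The ASO10 libraries lay above all others (log2 0.19, SE 0.053, adjusted p = 0.0144 against NCA), and ASO2 lay lower than ASO10 (log2 -0.25, SE 0.053, adjusted p = 0.000375, where 5.45% of genes were called lower). With other genes' ends left out, both turned sign and lost the call (log2 -1.03, adjusted p = 0.154, and 0.13, adjusted p = 0.918). The regions left in that sum were weak (1.60, 1.06 and 0.639 region CPM as means over all libraries), so it rests on few counts. The ASO10 call was also lost without NCA 3 (0.0855), ASO10 1 (0.0787) or ASO10 3 (0.066). It was lost as well with flanks within 20 kb (0.0937) and within 100 kb (log2 0.10, adjusted p = 0.145). Its called region, chr11:65918753-65920134, lies at the ends of DRAP1 and C11orf68; it gave 25.1, 26.2 and 35.4 region CPM as means for NCA, ASO2 and ASO10. That region was higher with ASO10 than with NCA (log2 0.50, SE 0.13, adjusted p = 0.0228). At the FOSL1 gene end no difference was called, and its 95% interval for ASO10 against NCA (log2 -0.92 to 0.55) is too wide to tell.

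Apart from the FOSL2 region above, no gene's strongest flank region was called by edgeR's test over all 9 libraries. The region 19.1 kb before FOS, at chr14:75258743-75259723, was the strongest flank region of that gene and gave 33.5, 34.3 and 36.7 region CPM as means for NCA, ASO2 and ASO10 (ASO10 log2 0.13, adjusted p = 0.777). The region 23.3 kb before FOSB, at chr19:45442848-45444681, gave 26.6, 26.7 and 30.7 (log2 0.21, adjusted p = 0.62). Those of JUNB (18.9, 20.1 and 22.5), JUND (23.8, 21.2 and 25.3), MAFF (15.8, 15.6 and 19.5), JUN (4.54, 4.81 and 4.64) and BATF3 (11.1, 10.9 and 7.87) did not pass either. The JUND region touches an end of LSM4, and that of MAFF touches an end of PLA2G6. The centres of the FOSB, JUNB and JUN regions lie inside ERCC1, MAST1 and the lncRNA JUN-DT. The strongest region around FOSL1, chr11:65857418-65860848, gave 67.9, 64.5 and 80.8 and lies at the ends of CFL1 and MUS81. Between the ASOs it was called lower with ASO2 by DESeq2 (log2 -0.33, adjusted p = 0.0297) and limma-voom (0.011), and by edgeR with at least 10 counts in every library (0.0194), with only the groups compared (0.0262) and without ASO2 2 (0.0245). JUN is the sparsest of the 9 loci: its 4 flank regions summed to 6.46 to 9.87 flank CPM in the NCA libraries, against 55.4 to 61.2 for the 10 of FOS. For FOS, JUN, JUNB, JUND, MAFF and BATF3 the flank sums were called in none of the 3 comparisons.

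**Figure D4:**
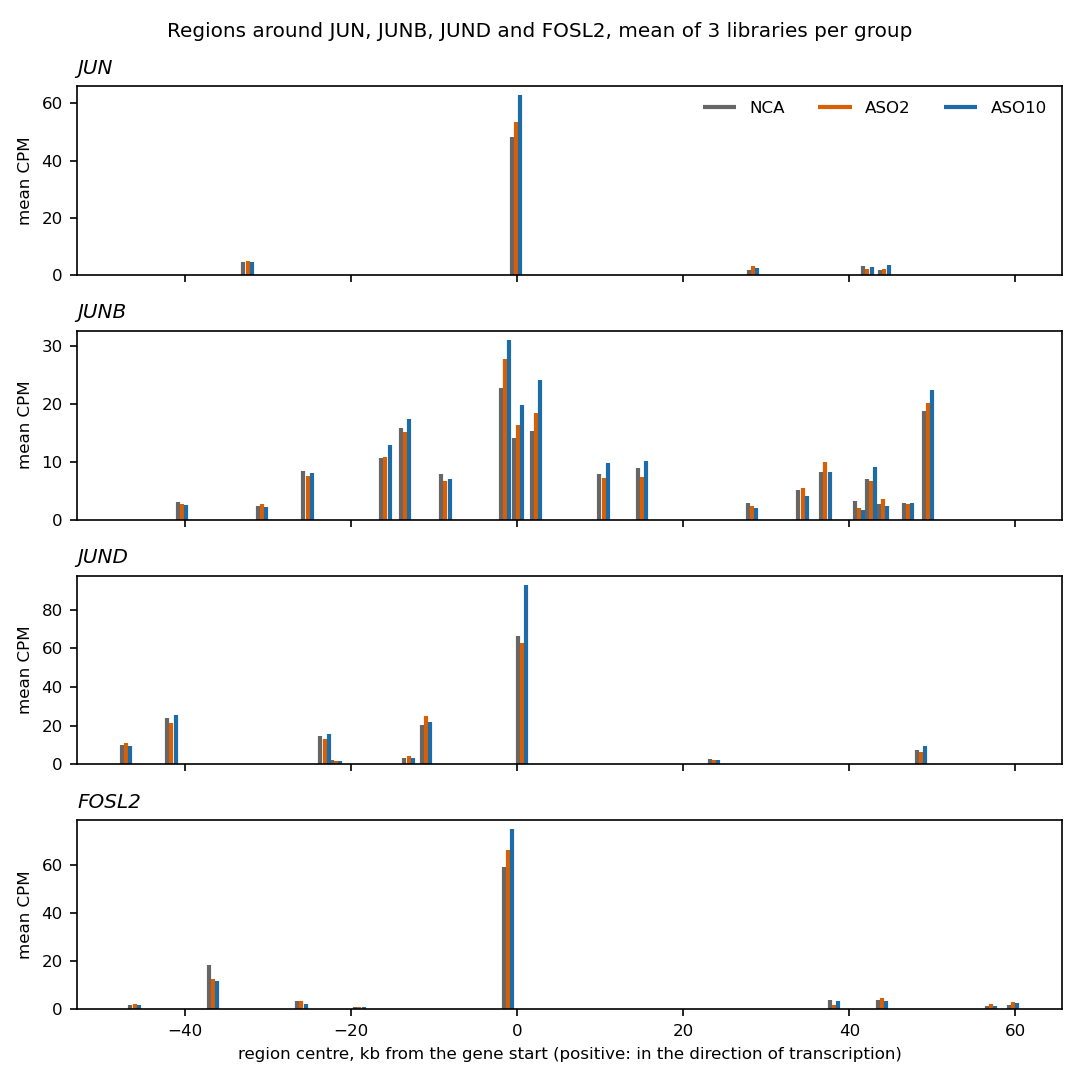
Mean region CPM of 3 libraries per group (vertical axes) for each region around JUN, JUNB, JUND and FOSL2, against the distance of its centre in kb from the gene start, positive in the direction of transcription. The tallest bars stand at the gene, with ASO10 highest there in all 4 genes, and the FOSL2 region 36.1 kb before the gene is lower with both ASOs.

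The difference between the ASOs was tested directly for each gene. JUND alone differed at its gene ends, at log2 -0.41 for ASO2 against ASO10, and the other 8 genes gave -0.15 (FOSB) to 0.16 (BATF3), with adjusted p from 0.549 to 0.996. For JUN the 95% interval of ASO2 against ASO10 was -0.25 to 0.07, and for FOSL2 -0.18 to 0.12. A call with ASO10 and none with ASO2, as for JUN and FOSL2, is not a measured difference between the oligonucleotides.

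A few other genes of the AP-1 pathway were also higher at their ends with ASO10. Of 56 genes in 5 lists, 48 had a tested gene-end sum, and with ASO10 5 were called higher and none lower (background 2.83% and 1.66%). All of the 5 but MRTFA had at least 100 gene-end CPM, where the background called higher was 8.67%. That share covers only genes of this strength, while the 48 include weaker ones, so it is not a background for all 48. These were SRF, the serum response factor that binds the CArG box (log2 0.35, adjusted p = 0.0347), its coactivator MRTFA (log2 0.48, adjusted p = 0.00962), MEF2D, a MADS-box factor that acts on JUN (log2 0.30, adjusted p = 0.0285), the immediate early gene EGR1 (log2 0.30, adjusted p = 0.011) and the large MAF protein NRL (log2 0.30, adjusted p = 0.00586). MRTFA rose from 59.2, 68.0 and 69.4 gene-end CPM with NCA to 88.5, 90.2 and 96.8 with ASO10, with ASO2 at 82.6, 84.7 and 69.5. With loess offsets MRTFA alone of the 5 stayed called. MRTFA was lost without NCA 1 (0.0689) or ASO10 3 (0.0555), NRL without NCA 2 (0.053), and EGR1 without NCA 1 (0.132) or ASO10 1 (0.0962). MEF2D was lost without NCA 1 (0.0507), NCA 2 (0.165) or ASO10 2 (0.293). SRF was lost with DESeq2 (0.288) and without NCA 1 (0.052), NCA 2 (0.3), ASO10 1 (0.0744) or ASO10 2 (0.229).

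By list, the ASO10 calls were 1 of 10 tested further AP-1 and MAF proteins (median log2 0.12), 3 of 7 factors that switch on FOS and JUN (0.21), 1 of 13 other immediate early genes (0.17), none of 12 kinases that act on AP-1 (0.13) and none of 6 genes known as AP-1 targets (-0.07), against -0.0038 over all genes tested. DESeq2 and limma-voom called none of the kinases or targets either, and 2 of the kinases and 1 of the targets had an unadjusted p under 0.05. With ASO2 none of the 48 was called by edgeR, DESeq2 or limma-voom, and 11 had an unadjusted p under 0.05. Between the ASOs none was called by those tools, and 7 had an unadjusted p under 0.05. The remaining 8 listed genes, among them ATF3 and MMP1, had no gene-end region to test.

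Across the 9 libraries, the gene-end levels of JUN and JUNB ran together most closely among the 9 genes (Pearson r 0.888 of log2 CPM), followed by FOSL2 and JUNB (0.876) and FOS and FOSL2 (0.798). The nearest fellow member of JUND was JUNB (0.587), that of FOSB was FOS (0.691) and that of MAFF was FOSB (0.513), while FOSL1 and BATF3 were nearest to each other (0.304). The lowest values were those of FOSB and FOSL1 (-0.779), MAFF and FOSL1 (-0.727) and BATF3 and JUNB (-0.706). The protein-coding genes most like them of all those tested were RAB3A for JUN (0.969), MPC2 for JUNB (0.973), DYRK1A for JUND (0.953), KYAT3 for FOS (0.952), SPRY2 for FOSB (0.977), OR6M1 for FOSL2 (0.968), FGFR3 for FOSL1 (0.904), SOX12 for MAFF (0.943) and ARHGEF16 for BATF3 (0.975). These values describe 9 libraries that share groups and scaling, and the nearest of 14463 genes is high by selection.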

How the data were processed

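ATAC-seq was done on SK-N-BE(2)c cells given NCA, ASO2 or ASO10, 3 libraries each. The authors deposited whole-number counts for 148797 regions with no normalization, as the values show. Per the submitters' processing notes, FastQC, Bowtie2 2.2.6, SAMtools, MACS2 2.1.2 and DESeq2 1.42.0 were used with hg38/GRCh38. Their roles, read filters, duplicate removal, the Tn5 shift, and whether reads or cut sites were counted are not given in the sources used here. RNA is the molecule named in the labels, but tagmented DNA is what the protocol there describes.

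Gene spans came from RefSeq's table for GRCh38.p14, where strand is absent, and start and stop were therefore treated alike as gene ends. Tests ran over the whole table in 3 families of features: regions (119417 tested), gene-end sums per protein-coding gene (regions that overlap the 1 kb on either side of an end, 14463 genes) and flank sums (the remaining regions centred within 50 kb, 19115 genes). Each was filtered with filterByExpr by group, scaled by TMM and tested two-sided by the quasi-likelihood method of edgeR 4.0.16 in R 4.3.3 (robust, all 9 libraries, a term per group). P-values were adjusted by Benjamini-Hochberg over each family and called under 0.05. The SE is the log2 fold change divided by the square root of F, and 95% intervals are 1.96 SE. Biological coefficients of variation were 23.5% for regions, 8.79% for gene-end sums and 6.5% for flank sums, so sums are the more precise. Within each group, every pair of libraries differed by more than counting noise (chi-square per degree of freedom 2.74 to 3.42), so none was a copy. The labels name no batch.

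The rule for what is named was all 9 genes, for each the strongest gene-end region, the strongest other region and every called region, with pathway genes by value where called. The genes, lists and tests were chosen with earlier results of these data known. Correlations used log2 CPM with a prior count of 2. The planned marker list held 1 further gene, which is not reported here. The fits were tested on simulated counts. Alternatives were DESeq2 1.42.0, limma-voom (limma 3.58.1), scaling by RLE factors, by total counts or by loess offsets on abundance (span 0.3), a filter of 10 counts in every library or none, only the groups compared, a replicate block, gene ends within 250 bases or 2 kb, flanks within 20 or 100 kb, other genes' ends left out, and leaving out each library. Python 3.11.15 with pandas 2.3.3 and matplotlib 3.10.9 made the tables and the figures. The counts carry no UMIs, so precision rests on the spread between libraries.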

Additional observations from a re-analysis of the deposited data

Results flagged for a closer look

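In 4 values at 2 loci ASO2 and ASO10 differed by a direct test between the 2 oligonucleotides. The gene ends of JUND were lower with ASO2 than with ASO10 (log2 -0.41, adjusted p = 3.7e-05), and so was the region that covers JUND (log2 -0.56, adjusted p = 3.7e-05). These 2 values come from the same counts, scaled in 2 ways. The other 2 values come from the neighbourhood of FOSL1, the flank sum (log2 -0.25, adjusted p = 0.000375) and the region at the ends of DRAP1 and C11orf68 (log2 -0.44, adjusted p = 0.0297). That region is 1 of the 12 in the flank sum. The FOSL1 region was not called with DESeq2 (0.0732), loess offsets (0.0994) or no filter (0.0519), nor without ASO2 1 (0.1), ASO2 3 (0.302), ASO10 1 (0.103) or ASO10 3 (0.271). With other genes' ends left out, where few counts remain, the FOSL1 flank sum lost its call and turned sign (0.13, adjusted p = 0.918).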

How the results depend on the processing

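Over 9 counts of calls and 119 single values, every alternative gave 2461 pairs of a result with a setting. Of the 177 pairs of a count, 138 stayed within 1.5 times the main count, and of the 2284 pairs of a single value, 2172 kept their side of the threshold. Both values that were called and turned sign belong to the FOSL1 flank sum with other genes' ends left out, which rests on few counts. They stood at -1.03 for ASO10 against NCA and 0.13 for ASO2 against ASO10. A further 98 sign changes concern values called under neither setting. Called regions with ASO2 numbered 1, and 0 with DESeq2, 0 with limma-voom and 2 with loess offsets. With ASO10 they numbered 4, and 2 with loess offsets, 7 with at least 10 counts in every library and 7 with only the groups compared. Between the ASOs they numbered 2, and 1 with loess offsets and 1 with no filter. Called gene-end sums with ASO2 numbered 1, and 0 with loess offsets and 0 within 250 bases. With ASO10 they numbered 4, and 2 with loess offsets. Called flank sums with ASO10 numbered 3, and 0 with loess offsets, 0 within 20 kb and 1 with other genes' ends left out; between the ASOs they numbered 1, and 0 with other genes' ends left out. Leaving out each library in turn gave 0 to 1, 1 to 6 and 1 to 3 called regions (ASO2, ASO10 and between the ASOs), 0 to 1, 2 to 4 and 1 to 1 gene-end sums, and 0 to 1, 0 to 3 and 1 to 1 flank sums. The cause of these changes was not tested. FOSB had its flank sum called with ASO2 without ASO2 3 (log2 0.17, adjusted p = 0.0497). JUND had its flank sum called with ASO10 within 100 kb (log2 0.19, adjusted p = 0.00209). Same-numbered libraries did not deviate together (r -0.109 to 0.057), and 2 of 9 libraries correlated best with their own number. A replicate block gave 1, 4 and 2 called regions, 1, 3 and 1 gene-end sums and 0, 3 and 1 flank sums; FOSL2 left the gene-end calls at an adjusted p of 0.051. Depth limits the weak regions most: FOSL1's gene end held about 11 gene-end CPM and its interval spans both directions.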
